A study of Mus musculus with 2 samples.

Results

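The genes described here are 4 ligands of the bone morphogenetic protein (BMP) family, Bmp2, Bmp4, Bmp5 and Bmp7, and 5 secreted proteins that bind and block such ligands, Grem1, Nog, Chrd, Chrdl1 and Fst. They are 9 of the 37309 genes counted, taken by symbol from the table of all genes, and each symbol matched 1 row. They were chosen by their levels in this same comparison, with those values known, so the levels and ratios of these genes are a description and carry no test. The RNA came from cultured intestinal subepithelial myofibroblasts (ISEMFs), the contractile stromal cells that lie beneath the crypts, from the small intestine of wild type C57BL/6 mice. Supportive ISEMFs were grown from neonates, described in the methods as 5 days old, and non-supportive ISEMFs from adults, described as 2 months old. Both were isolated in the same way and kept in medium with serum, insulin, transferrin and epidermal growth factor, with no other treatment. There was 1 library for each population, so no difference has a replicate check, and the population, the age of the mice and the individual culture cannot be told apart. The number of mice and their sex are not given in the sources used here, and neither is the passage of the sequenced cells in the labels or methods. The names of the deposited data carry the tag P16 for the supportive and P3 for the non-supportive library, which may be passage numbers. If they are, passage differed between the libraries, and it cannot be told apart from the population in any ratio given here.

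BMPs are secreted dimers of the TGF-beta superfamily that bring together type I and type II serine/threonine kinase receptors, whose active complex phosphorylates Smad1, Smad5 and Smad9. In the intestine BMP signaling is strongest toward the villus, where it favors differentiation and restrains the proliferation of stem cells. Stromal cells around the crypt base secrete antagonists that keep BMP activity low there, and Noggin is a standard supplement of enteroid medium for the same purpose. The study compared the populations to find secreted factors that could account for their support of enteroids. The candidate it proposed was the Wnt agonist Rspo2, and its complete crypt medium contained Noggin. The comparison here sets ligand against antagonist transcripts, and their part in the support of enteroids was not tested.

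Reads on genes numbered 50674472 in supportive and 49615497 in non-supportive ISEMFs, and the members together took 12014 and 76673 of them. Of 8 myofibroblast markers all 8 had an RPKM (reads scaled by exon length and library size) of at least 1 in a library, and 4 of them differed at least 2-fold, in both directions. Acta2, the gene of α-smooth muscle actin, was at an RPKM of 908 in supportive and 1410 in non-supportive ISEMFs. Col1a2, at 286 and 41.6, and Pdgfrb, at 28.1 and 7.67, were higher in supportive ISEMFs, while Pdgfra, at 3.37 and 12.1, and Des, at 0.575 and 3.40, were lower. Endothelial, lymphocyte and mesothelial marker lists held 0 genes at that level. Of 13 macrophage markers 10 reached an RPKM of at least 1, and all 10 were at least 2-fold lower in supportive ISEMFs. The summed RPKM of that list was 9.55 in supportive and 136 in non-supportive ISEMFs, and 7 of its 13 genes, among them Ptprc, Emr1 and Itgam, had 0 reads in supportive ISEMFs. Of 8 epithelial markers 2 reached an RPKM of 1, in opposite directions. Lgr5, a marker of crypt stem cells, had 6702 reads in supportive and 4 in non-supportive ISEMFs, and Krt20, a keratin of differentiated epithelium, had 11 and 419. Cdh1 had 159 and 18 reads, Epcam had 0 and 5, and the epithelial factors Cdx1 and Cdx2 had 0 in both libraries.

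The leading ligand and the leading antagonist of the members differed in opposite directions. Among the members, Bmp4 was the main ligand transcript and was higher in supportive ISEMFs, while Grem1 was the main antagonist transcript and was higher in non-supportive ISEMFs. Fst, Nog and Bmp2 were also higher in non-supportive ISEMFs, and Chrd, at a very low level, was higher in supportive ISEMFs. Bmp5 and Chrdl1 had no reads in either library, and Bmp7 had too few to compare. Log2 ratios below are those of supportive over non-supportive ISEMFs, computed on RPKM + 0.1, which makes the ratio of a scarce transcript too small. Intervals are at 95% and cover counting error only.

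The sequences upstream of the pair that carried the opposed levels are given for orientation. The 250 bases before the RefSeq start of Grem1 lie at chr2:113598806-113599055 of mm9 on the minus strand, and those of Bmp4 at chr14:47010345-47010594 on the minus strand. Both come from the RefSeq promoter table of GRCm38.p6, and each matched 1 place on its mm9 chromosome exactly. They are written 5′ to 3′, with capitals marking GGCGCC, the palindromic core found in Smad1 and Smad5 response elements, CCAAT, and GGGCGG or its reverse complement CCGCCC, the GC box.
Grem1: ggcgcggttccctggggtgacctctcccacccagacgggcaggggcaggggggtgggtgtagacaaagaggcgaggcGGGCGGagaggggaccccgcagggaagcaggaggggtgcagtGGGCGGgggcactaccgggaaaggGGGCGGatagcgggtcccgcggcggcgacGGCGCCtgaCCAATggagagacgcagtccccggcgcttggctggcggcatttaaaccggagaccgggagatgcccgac
Bmp4: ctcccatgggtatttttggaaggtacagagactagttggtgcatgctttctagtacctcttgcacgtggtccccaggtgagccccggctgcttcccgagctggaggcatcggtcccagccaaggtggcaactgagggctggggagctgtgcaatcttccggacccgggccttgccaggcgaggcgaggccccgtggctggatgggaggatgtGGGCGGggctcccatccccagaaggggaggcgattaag

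The Grem1 window held 24 CpG dinucleotides and a GC content of 72%, and the Bmp4 window held 11 and 63.2%, where the median of 32851 RefSeq windows was 6 CpG dinucleotides and 52.4%. GGCGCC was found once upstream of Grem1, at position -78 from the start, and not upstream of Bmp4. On both strands together, GGCGCC was present in 9.59% of all windows, CCAAT in 33.8% and GGGCGG in 32.7%, and TATAAA, which neither window held, in 12.4%. GGCGCC and GGGCGG are short and can share letters, and a match is a run of letters rather than a binding site. The table also held Chrd, with 28 CpG dinucleotides and GGCGCC at position -203, and Bmp5, with 4 CpG dinucleotides and none of these motifs. Bmp2, Bmp7, Nog, Chrdl1 and Fst had no window in the promoter table.

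Among the ligands, Bmp4 encodes a ligand of gut mesenchyme with broad roles in patterning. The gene occupies chr14:47003195-47010344 of mm9, is transcribed from the minus strand and has 4 annotated exon blocks. Supportive ISEMFs had 8797 Bmp4 reads and an RPKM of 35.6 (exact Poisson interval, 34.8 to 36.3), against 509 reads and an RPKM of 2.12 in non-supportive ISEMFs (1.94 to 2.31). Supportive ISEMFs thus had a 16.8-fold higher Bmp4 RPKM, with an exact Clopper-Pearson interval from the reads of 15.4 to 18.4, and the log2 ratio was 4.01. In rank among protein-coding genes by RPKM, Bmp4 stood at 556 in supportive and at 6600 in non-supportive ISEMFs. Its locus overlaps Gm15217 and Gm15222 on the other strand, which had 10 and 35 reads in supportive ISEMFs, and reads that fell on more than 1 gene were left out of the counts.

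Bmp2 encodes the closest relative of Bmp4 in sequence. It sits at chr2:133377895-133388621 (plus strand) and had 0 reads in supportive and 234 in non-supportive ISEMFs, where its RPKM was 0.948 (exact Poisson interval, 0.830 to 1.08). With the count of 0 set at 3 reads, Bmp2 was 80.3-fold higher in non-supportive ISEMFs. That figure is nominal, since the exact Poisson limit of 0 reads is 3.69 and the counting error of the 234 reads is left out. The ligands thus did not move as a group, since Bmp4 and Bmp2 differed in opposite directions. The level of Bmp2 in non-supportive ISEMFs was below that of Bmp4 in the same library, at an RPKM of 2.12.

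Bmp7, which in the gut is made by epithelium and mesenchyme, sits at chr2:172693513-172765822 (minus strand). It had 2 reads in supportive and 5 in non-supportive ISEMFs, a ratio of 0.389 whose exact interval spanned 0.0370 to 2.37, and no difference could be detected at this depth. Bmp5, known from the stroma at the villus and from skeletal development, sits at chr9:75623171-75748117 (plus strand) and had 0 reads in both libraries. For a gene of its length, 3 reads would give an RPKM of 0.00996 in supportive and 0.0103 in non-supportive ISEMFs.

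Among the antagonists, Grem1 encodes Gremlin 1, a cystine-knot protein that binds BMP2 and BMP4 and is a mark of stromal cells at the crypt base and in the muscle layers. It sits at chr2:113586321-113598803 (minus strand), with 2 exon blocks. Supportive ISEMFs had 2515 Grem1 reads and an RPKM of 8.48 (exact Poisson interval, 8.16 to 8.82), against 72472 reads and an RPKM of 252 in non-supportive ISEMFs (250 to 253). The RPKM was 29.7-fold higher in non-supportive ISEMFs, with an exact interval of 28.5 to 30.9, and the log2 ratio was -4.87. Grem1 was at rank 54 among protein-coding genes in non-supportive ISEMFs and at rank 2722 in supportive ISEMFs. Its reads made 0.146% of all reads on genes in non-supportive ISEMFs and 94.5% of those on the 9 members.

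Fst encodes follistatin, which neutralizes activins with high affinity and several BMPs with lower affinity. It sits at chr13:115242470-115249159 (minus strand). Supportive ISEMFs had 639 Fst reads and an RPKM of 3.07, against 3342 reads and an RPKM of 16.5 in non-supportive ISEMFs. Its RPKM was 5.38-fold higher in non-supportive ISEMFs (exact interval, 4.94 to 5.87), with a log2 ratio of -2.39. Fst differed in the same direction as Grem1, and the intervals of their ratios did not overlap.

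Nog encodes Noggin, which covers the receptor-binding faces of BMP dimers. The gene is a single exon block at chr11:89161952-89163873 (minus strand). It had 0 reads in supportive and 102 in non-supportive ISEMFs, where its RPKM was 0.764 (exact Poisson interval, 0.623 to 0.928). With the count of 0 set at 3 reads, it was nominally 35.0-fold higher there. Its level was nonetheless a small part of that of Grem1 in the same library.

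Chrd encodes Chordin, which holds BMPs in a latent complex until it is cleaved by tolloid proteases. It sits at chr16:20733200-20742457 (plus strand) and overlaps Thpo on the other strand, which had 12 and 6 reads. Chrd had 61 reads and an RPKM of 0.0991 in supportive ISEMFs, against 9 reads and an RPKM of 0.0150 in non-supportive ISEMFs. The ratio was 6.59-fold in favor of supportive ISEMFs, with an exact interval of 3.25 to 15.1, and both levels were far below an RPKM of 1. Chrdl1, the related chordin-like 1 gene at chrX:139720217-139828805, had 0 reads in both libraries, where 3 reads would give an RPKM of 0.00368 and 0.00379.

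**Figure D1:**
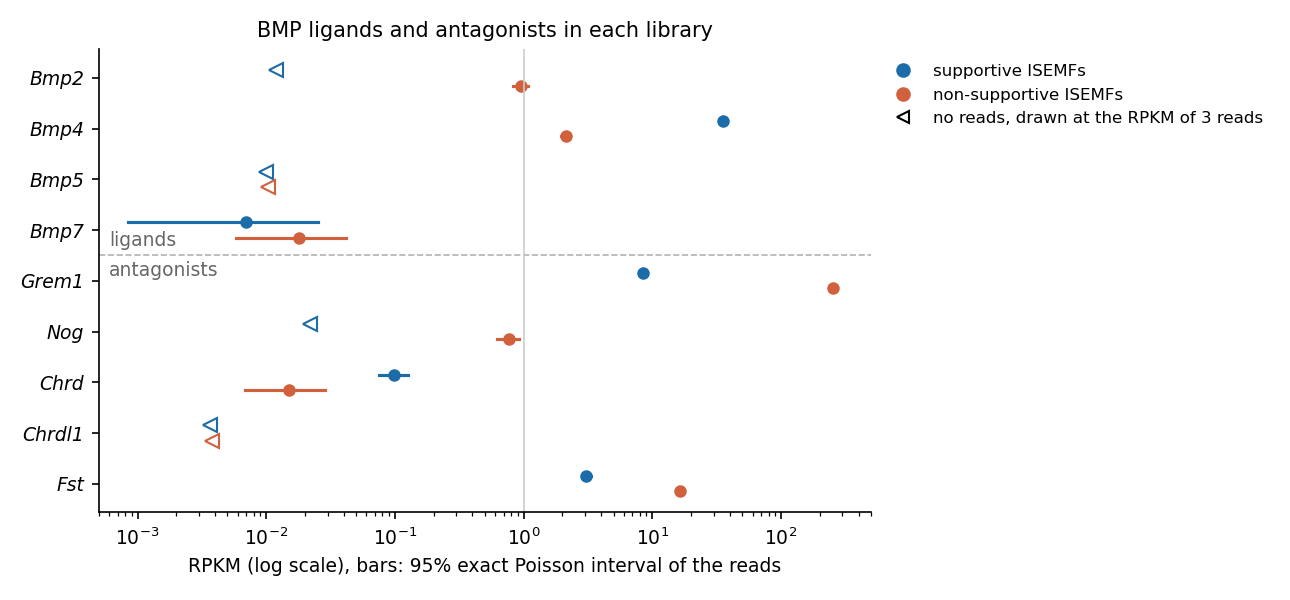
RPKM of each member (x axis, log scale) in supportive and non-supportive ISEMFs, with 1 library each. Bars give the 95% exact Poisson interval of the reads, and open triangles mark genes with no reads, drawn at the RPKM of 3 reads. Bmp4 sits at 35.6 in supportive and 2.12 in non-supportive ISEMFs, and Grem1 at 8.48 and 252.

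In either library an RPKM of 1 or more was reached by 3 of the 9 members, Bmp4, Grem1 and Fst, and all 3 differed at least 2-fold, 1 higher and 2 lower in supportive ISEMFs. Over all 10086 genes at that level, 18.3% differed at least 2-fold, with 9.01% higher and 9.27% lower, and the median log2 ratio was -0.07. Since the members were chosen with these values known, nothing is read from the contrast of those shares. Among the 10086 genes the log2 ratio of Grem1 stood at percentile 0.397, that of Fst at 2.57 and that of Bmp4 at 99.4. With no minimum on RPKM, Bmp2 and Nog joined the lower genes, making 4 members against 5.05% of all genes, while Chrd stayed under a 2-fold difference on the scale of RPKM + 0.1, with a log2 ratio of 0.79.

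**Figure D2:**
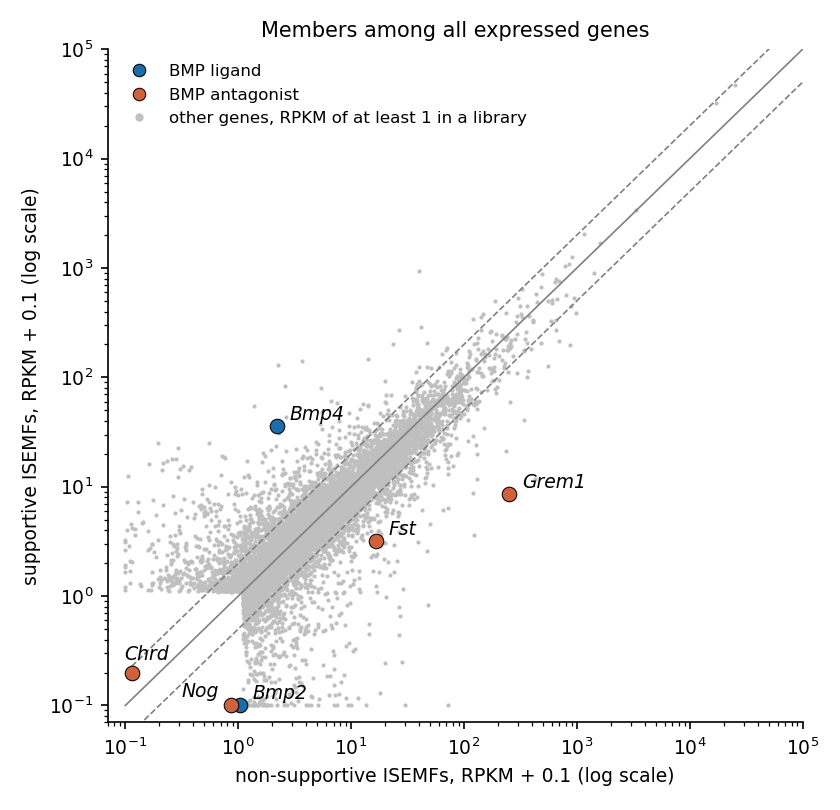
RPKM + 0.1 of each gene with an RPKM of at least 1 in a library (grey), in non-supportive (x axis) and supportive ISEMFs (y axis), both on log scales and with 1 library each. The solid line marks equal values and the dashed lines a 2-fold difference. Members with reads in a library are colored as ligand or antagonist except Bmp7, and Bmp4 lies above the lines while Grem1 and Fst lie below.

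RPKM is a value per exon length, so levels can be added within a library. The 4 ligands summed to an RPKM of 35.6 in supportive and 3.08 in non-supportive ISEMFs, an 11.5-fold higher sum in supportive ISEMFs. The 5 antagonists summed to an RPKM of 11.7 in supportive and 269 in non-supportive ISEMFs, a 23.1-fold higher sum in non-supportive ISEMFs. The ratio of antagonist to ligand RPKM was 0.328 in supportive and 87.2 in non-supportive ISEMFs. Among the 9 members, ligand transcripts thus exceeded antagonist transcripts in the former and fell below them in the latter. Because both sums come from the same library, this ratio does not depend on how the libraries were scaled to each other. The excess of ligand transcripts in supportive ISEMFs was limited to the members. In that library 16 other antagonists and modulators, described below, summed to an RPKM of 425, and 11 other BMP and GDF ligands to 6.13.

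A few genes set these sums. Bmp4 made nearly all of the ligand RPKM in supportive ISEMFs, at 99.98%, and 68.7% in non-supportive ISEMFs, where Bmp2 made most of the rest. Grem1 made 72.8% of the antagonist RPKM in supportive and 93.6% in non-supportive ISEMFs, and Fst made 26.3% and 6.14%. Without Grem1, the ratio of antagonist to ligand RPKM was 0.0890 in supportive and 5.61 in non-supportive ISEMFs, again on either side of 1. The exon lengths of the deposited table for Bmp4 and Fst, 3462 and 2915 bases, exceed those of the GENCODE vM1 annotation, 2224 and 2687 bases. Those of Bmp5, Chrd and Chrdl1 exceed the annotated lengths as well. With the annotated lengths the ratios were 0.216 and 63.4.

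**Figure D3:**
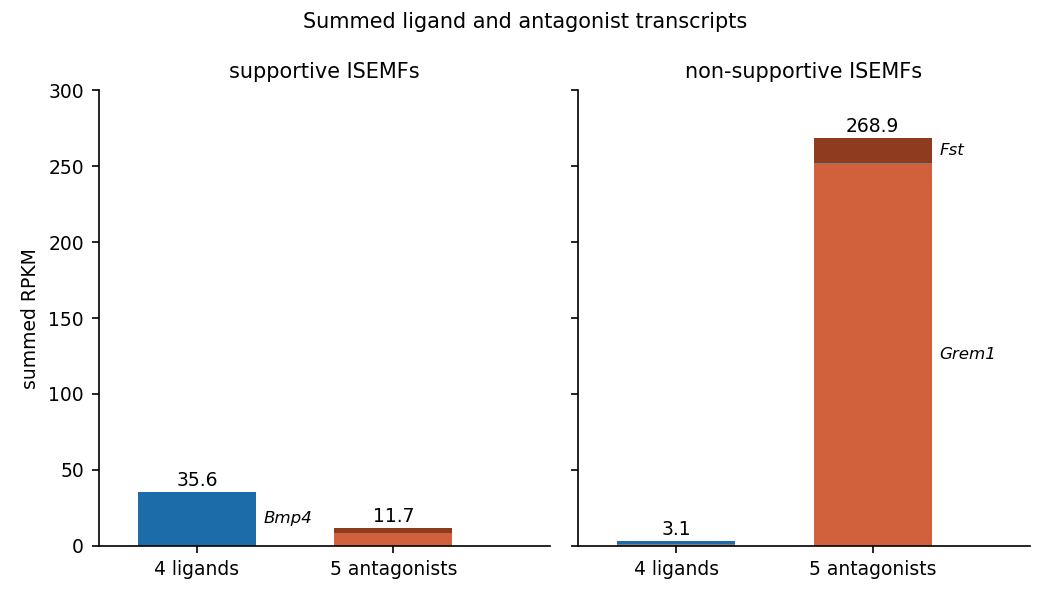
Summed RPKM of the 4 ligands and 5 antagonists in supportive ISEMFs (left) and non-supportive ISEMFs (right), 1 library each, stacked by gene, with no error bars because there were no replicates. The ligand bar is the taller in supportive ISEMFs, at 35.6 against 11.7, and the antagonist bar in non-supportive ISEMFs, at 269 against 3.08.

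Some genes listed as markers of other cell types differed between the libraries as well. The macrophage list, whose summed RPKM was 9.55 and 136, was higher in non-supportive ISEMFs in the same direction as Grem1, Fst, Nog and Bmp2. The summed smooth muscle list was also higher there, at 407 and 661, but its genes did not share 1 direction. In supportive ISEMFs 3 of its 6 expressed genes were lower by 2-fold or more, and none was higher by that margin. Actg2 and Lmod1 were lower by less than 2-fold, and Smtn was 1.55-fold higher. Myocd, which was below the minimum level, had 591 reads in supportive and 37 in non-supportive ISEMFs, 15.5-fold higher in the former (exact interval, 11.1 to 22.3). Of interstitial cell of Cajal markers, Ano1 was at an RPKM of 0.0225 in supportive and 1.94 in non-supportive ISEMFs, and Kit at 0 and 0.0126. Other markers were higher in supportive ISEMFs, in the direction of Bmp4. Of 8 neuron and glia markers 3 reached an RPKM of 1, and of these only S100b differed at least 2-fold, at an RPKM of 6.69 in supportive and 0.116 in non-supportive ISEMFs, while the glial genes Sox10 and Gfap had at most 3 reads. Lgr5 was at an RPKM of 7.22 and 0.00443. A single marker such as Lgr5, S100b or Ano1 does not by itself identify a cell type. Whether such cells were present, and their part in the differences of the members, was not tested. In bulk RNA, fewer cells of a type and less RNA per cell cannot be told apart.

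Beyond the 9 members, 68 genes of the pathway were listed by role, and 39 of them had an RPKM of at least 1 in a library. Of these 39 genes, 5 were at least 2-fold higher and 10 at least 2-fold lower in supportive ISEMFs, which is 38.5% against 18.3% of all genes. Their median log2 ratio was -0.44, where that of all genes was -0.07. These counts describe 1 library of each population, and the lists were drawn up with earlier results on some of these genes known.

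Most other BMP ligands stayed under an RPKM of 1, though several of them had reads. Of 11 further BMP and GDF genes only Gdf6, a ligand of joint and eye development, had an RPKM of at least 1, with 5.29 in supportive and 1.44 in non-supportive ISEMFs. Supportive ISEMFs had the 3.68-fold higher level (exact interval, 3.27 to 4.14), the same direction as Bmp4. The activin subunits, whose dimers are the main targets of follistatin, split. Inhba, which encodes the subunit of activin A, had 20259 reads in supportive and 42164 in non-supportive ISEMFs, and its RPKM, 203 in the latter, was 2.14-fold higher there (2.11 to 2.18), though under 2-fold without mitochondrially encoded genes in the library size. Inhbb was 2.41-fold higher in supportive ISEMFs, at an RPKM of 2.01 against 0.832. The RPKM of Inhba was 31.0 times that of Fst in supportive ISEMFs and 12.3 times in non-supportive ISEMFs. These values depend on the exon lengths used, since that of Inhba is 2984 bases as deposited and 1980 as annotated.

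Of 16 other antagonists and modulators, 8 had an RPKM of at least 1. Of these 8 genes 2 were at least 2-fold higher and 2 lower in supportive ISEMFs, which is 50% against 18.3% of all genes. The related secreted matrix proteins Smoc1 and Smoc2 went opposite ways. Smoc1, known to inhibit BMP signaling, was at an RPKM of 18.6 in supportive and 0.654 in non-supportive ISEMFs, 28.5-fold higher in the former (25.1 to 32.5). Smoc2 was at an RPKM of 3.62 in supportive and 18.3 in non-supportive ISEMFs, 5.06-fold higher in the latter (4.68 to 5.49).

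The remaining genes past 2-fold in that list were close to that limit. Twsg1, whose product joins Chordin and BMP in a ternary complex, was at an RPKM of 44.9 in supportive and 22.0 in non-supportive ISEMFs, a ratio of 2.05 whose exact interval of 1.98 to 2.11 reached below 2. Crim1, which encodes a membrane protein that binds BMPs inside the producing cell, was at an RPKM of 77.2 in supportive and 160 in non-supportive ISEMFs, and fell under 2-fold with library sizes scaled by TMM (trimmed mean of M values), with the median log2 ratio set to 0 and without mitochondrially encoded genes in the library size. The summed RPKM of all 16 genes, most of it from Fstl1 and Crim1, was 425 in supportive and 393 in non-supportive ISEMFs. The antagonist genes therefore did not share 1 direction, and the difference between the antagonist sums of the members came mostly from Grem1.

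Of the 7 proteases that cleave Chordin or process BMP precursors, 5 had an RPKM of at least 1. Of these 5 genes only Tll1 differed at least 2-fold, which is 20% against 18.3% of all genes. Tll1 encodes tolloid-like 1, which cleaves Chordin and also processes matrix proteins. Supportive ISEMFs had 1243 Tll1 reads and an RPKM of 3.53, against 41628 reads and an RPKM of 122 in non-supportive ISEMFs. The RPKM was 34.5-fold higher in non-supportive ISEMFs, with an exact interval of 32.6 to 36.5 and a log2 ratio of -5.07. Bmp1, which despite its name is a protease of the same family, was at an RPKM of 8.91 in supportive and 12.3 in non-supportive ISEMFs.

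Of 14 receptors and co-receptors, 10 had an RPKM of at least 1, with 1 at least 2-fold higher and 1 lower in supportive ISEMFs, which is 20% against 18.3% of all genes. The type I receptor Bmpr1a was at an RPKM of 46.9 in supportive and 33.7 in non-supportive ISEMFs, and the type II receptor Bmpr2 at 61.0 and 56.3. Acvr1, another type I receptor, was at an RPKM of 7.18 in supportive and 6.96 in non-supportive ISEMFs, a ratio of 1.03 with an exact interval of 0.982 to 1.08. Bmpr1b was at an RPKM of 1.22 and 1.70, and Acvr2a, a type II receptor shared with activins, at 19.2 and 11.3. Acvrl1, mainly an endothelial type I receptor, was at 0.691 and 0.990, and Acvr2b was at 0.0760 and 0.0602. The genes past 2-fold were a pair of repulsive guidance molecules that act as BMP co-receptors. Rgma was 4.08-fold higher in supportive ISEMFs, at an RPKM of 1.41 against 0.346, and Rgmb 2.72-fold higher in non-supportive ISEMFs, at 20.1 against 7.40.

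Of the 8 Smads and Smurfs, 7 had an RPKM of at least 1. Of these 7 genes 28.6% differed at least 2-fold, against 18.3% of all genes, with 2 lower in supportive ISEMFs and none higher. These were Smad9, with an RPKM of 0.540 in supportive and 1.81 in non-supportive ISEMFs, and Smurf2, a ubiquitin ligase for Smads and receptors, with 21.8 and 54.0. The receptor-regulated Smad1 was at an RPKM of 5.38 in supportive and 7.95 in non-supportive ISEMFs, and Smad5 at 4.20 and 4.04. The inhibitory Smad7 was at 4.88 and 7.93.

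Genes known to respond to BMP were not higher as a group in supportive ISEMFs, the library with more Bmp4 and less Grem1. Of 11 such genes 8 had an RPKM of at least 1, with 4 at least 2-fold lower and 0 higher, which is 50% against 18.3% of all genes. The median log2 ratio of the 8 genes was -1.07. Of these 8 genes 2, Smad7 and Smad9, are also in the Smad list. Under that level, Bambi was 1.48-fold higher in supportive ISEMFs (1.18 to 1.87), and the ratio intervals of Smad6 and Msx1 spanned 1. Id1, the inhibitor of DNA binding gene most used as a readout of the pathway, was at an RPKM of 2.23 in supportive and 6.42 in non-supportive ISEMFs, 2.88-fold higher in the latter (exact interval, 2.43 to 3.42). Id2 was at 7.55 and 20.9, 2.77-fold higher in the latter (2.53 to 3.02). Id3, at 17.6 and 24.8, and Id4, at 3.37 and 3.80, differed less than 2-fold. So did Atoh8, which was higher in supportive ISEMFs, at 3.05 and 1.91, with the highest log2 ratio of the 8 genes at 0.65. Msx2, a homeobox gene, was at an RPKM of 0.986 in supportive and 11.9 in non-supportive ISEMFs, 12.1-fold higher in the latter (10.3 to 14.2). These genes respond to other signals as well, among them serum, which both cultures received, and the cause of their levels was not tested.

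**Figure D4:**
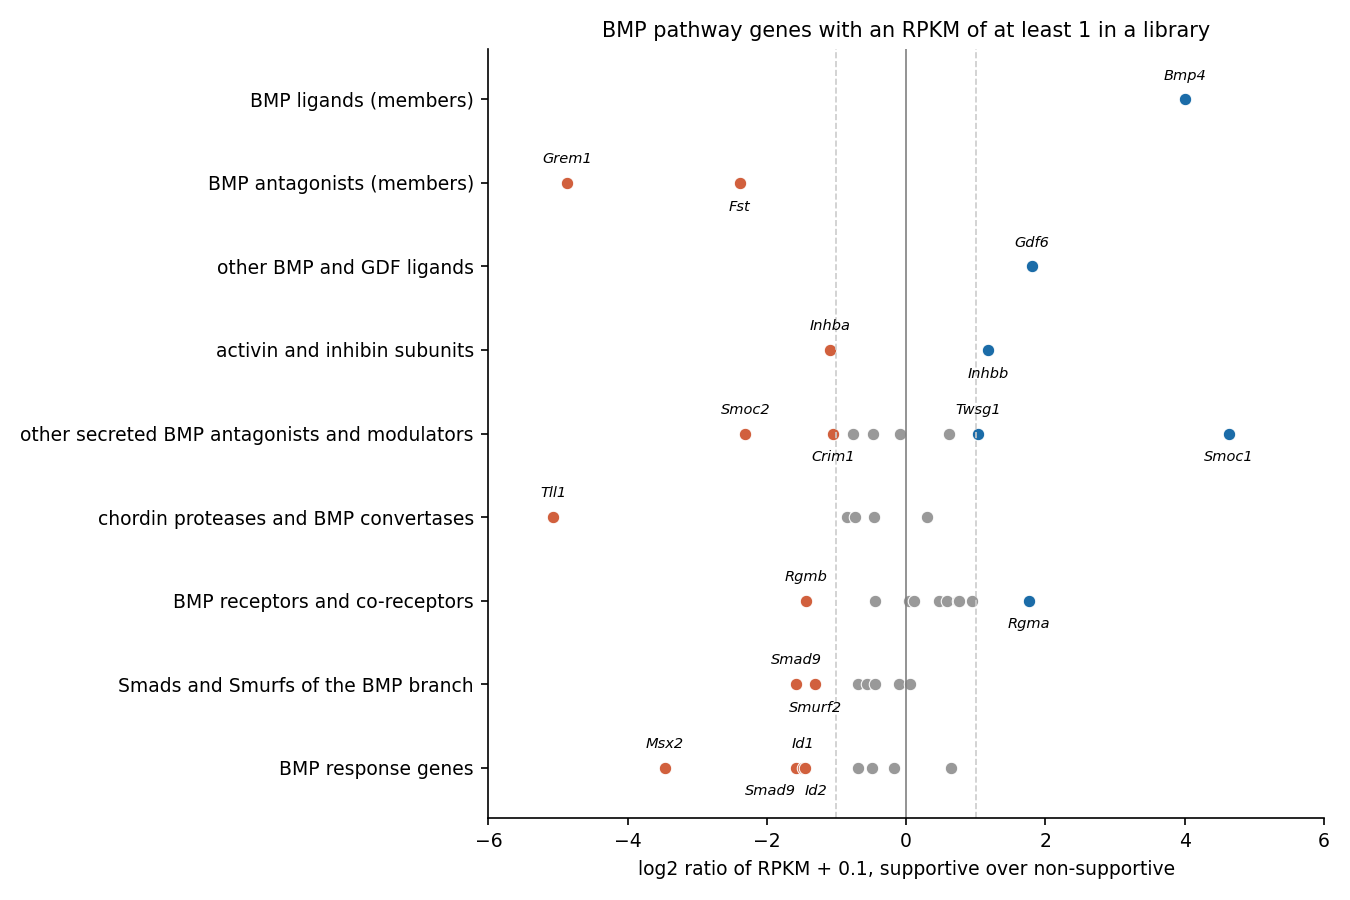
Log2 ratio of RPKM + 0.1 in supportive over non-supportive ISEMFs (x axis) for each gene with an RPKM of at least 1 in a library, by role (y axis), 1 library each. Blue points are at least 2-fold higher and orange points at least 2-fold lower in supportive ISEMFs, dashed lines mark 2-fold, and grey points lie between. Grem1 and Tll1 lie at -4.87 and -5.07, and Bmp4 and Smoc1 at 4.01 and 4.64, while the receptors other than Rgma and Rgmb lie between the lines.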

How the data were processed

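RNA sequencing libraries were made with a TruSeq kit from 1 culture each of supportive and non-supportive ISEMFs. The authors aligned single-end reads to mm9 with TopHat (per the submitters' processing notes, TopHat2 2.0.4), allowing unique hits, and counted reads per gene with HTSeq 0.5.4p3. The deposited counts are raw reads per gene. The deposited RPKM values are those counts divided by exon length and by library sizes that work out at 71463423 and 69449374 reads. Log2 ratios and DESeq p-values of the authors' own comparison were not used, nor was the shorter table of Wnt pathway genes. How strand was treated in counting is not given in the sources used here.

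Positions, exon blocks and the annotated exon lengths used as an alternative came from GENCODE vM1 (NCBIM37, the mm9 assembly), which holds all 37309 gene identifiers. All other RPKM values and intervals rest on the deposited exon lengths, which equal the annotated ones for 65.7% of genes. Each library was assigned by its population name in the labels. A pseudocount of 0.1 was added to RPKM for log2 ratios, and the count of 2-fold differences took in genes that reached an RPKM of 1 in either library. Intervals of levels are exact Poisson and those of ratios exact Clopper-Pearson, at 95%. A ratio against 0 reads was computed at 3 reads in that library and is a nominal figure, not a bound at 95%. With 1 library per population there are no residual degrees of freedom, so no test of the populations was made with edgeR, DESeq2 or any other tool. A gene of the pathway lists was left out of the lists and is not reported here. The members and gene lists were chosen with earlier results of these data known. Genes named are the 9 members, every listed pathway gene at least 2-fold different at that level, the type I and II receptors and Id1 to Id4. Acta2, other markers, Fstl1, Bmp1, Atoh8, Bambi, Msx1, Smad1, Smad5, Smad6, Smad7 and the overlapping and flanking genes were added after their values were seen. Alternatives were other pseudocounts, minimum levels, fold limits and library scalings, among them TMM (edgeR 4.0.16) and median-of-ratios size factors (DESeq2 1.42.0). The steps were tested on simulated counts. Scripts ran under R 4.3.3 and under Python 3.11.15 with scipy 1.17.1, pandas 2.3.3, numpy 2.4.6 and matplotlib 3.10.9.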

Additional observations from a re-analysis of the deposited data

How the results depend on the processing

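No direction of Bmp4, Grem1, Fst or Chrd changed under the alternatives tried. A pseudocount cannot change a direction, and the counts of genes were compared by size only. With a pseudocount of 1 the log2 ratio was 3.55 for Bmp4, -2.11 for Fst and -4.74 for Grem1, and with 0.001 it was 2.64 for Chrd. With mitochondrially encoded genes left out of the library size it was 4.15 for Bmp4 and -4.76 for Grem1, and with the median log2 ratio of expressed genes set to 0 it was -4.80 for Grem1. The number of members at least 2-fold lower was 4 with no minimum on RPKM, with reads on genes as the library size, with TMM and without mitochondrially encoded genes, since Bmp2 and Nog then entered the count. Of the other pathway genes, 2 were higher with a pseudocount of 1, 8 with no minimum, 3 with a minimum RPKM of 5 and 1 at 4-fold, where 3 were lower. Within the lists, the other antagonists and modulators had 1 lower gene in place of 2 with TMM, with the median set to 0 and without mitochondrially encoded genes, where the receptors had 2 higher genes in place of 1. The activin subunits had 0 lower genes without mitochondrially encoded genes. With a pseudocount of 1 the receptors and the activin subunits had 0 higher genes, the other antagonists and modulators 1, and the Smads and Smurfs 1 lower gene. The antagonist to ligand ratio without Grem1 was 0.0890 in supportive and 5.61 in non-supportive ISEMFs, without Fst 0.241 in supportive ISEMFs, and with GENCODE vM1 exon lengths, an alternative chosen after seeing the data, 0.216 and 63.4, with a ligand sum 13.0-fold higher in supportive ISEMFs. The antagonist sum was higher in non-supportive ISEMFs by 5.46-fold without Grem1, 29.4-fold without Fst, 21.9-fold with the median set to 0 and 21.2-fold without mitochondrially encoded genes. The ratios of Bmp2 and Nog against 3 reads were recomputed under the library scalings after the data were seen. The depth leaves genes under 3 reads undetected, and no alternative stands in for a replicate. No paired analysis was possible because each population had 1 library.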

Other observations

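The protein-coding genes that flank Grem1, Bmp4 and Fst differed less between the libraries than those members, where they had enough reads to compare. Fmn1, a formin gene whose span is known to hold distant regulatory sequence of Grem1, ends 29.4 kb from it and was at an RPKM of 3.02 in supportive and 6.20 in non-supportive ISEMFs, a log2 ratio of -1.01 beside the -4.87 of Grem1. Scg5, on the other side at 17.7 kb, had 3 reads in each library. Bmp4 is far from its neighbors, with Cdkn3 at 370 kb and an RPKM of 3.03 in supportive and 1.90 in non-supportive ISEMFs, and Ddhd1 at 725 kb and an RPKM of 0.903 and 1.12. Ndufs4, 64.2 kb from Fst, was at an RPKM of 26.4 in supportive and 33.3 in non-supportive ISEMFs, and 4930544M13Rik, on the other side of Fst, had 0 reads in both. Hao1, 934 kb from Bmp2, was at an RPKM of 0.157 in supportive and 0.726 in non-supportive ISEMFs, the same direction as Bmp2. Fermt1, on the other side of Bmp2, had 0 and 1 reads. The annotated genes on either side of Nog, Gm525 and 4932411E22Rik, had 0 reads in both libraries. Pak3, next to Chrdl1, had 5860 and 4453 reads, where Chrdl1 itself had 0.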
